A study of Rattus norvegicus with 18 samples.

Results

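Guidance cues and their receptors were followed through vitamin C treatment of rat Schwann cells, in a set of 10 genes: the semaphorin ligands Sema3a and Sema4f, the semaphorin receptors Nrp1, Nrp2 and Plxna2, the netrin ligand Ntn1, the netrin receptors Unc5b and Unc5d, the slit ligand Slit2 and the slit receptor Robo1. The genes were taken by symbol from the peak annotation. Control against vitamin C values of RNA and of 5-hydroxymethylcytosine were already known when they were picked. Calls from the fits over all features are therefore printed as a description and not as independent evidence, and the genes were not tested as a set. They are 10 of the 32883 RNA identifiers in the study, and all 10 had enough reads to enter the fit of 12925 genes. Their annotated peaks number 238 of 215951. Primary Schwann cells, the glia that wrap peripheral axons, had been taken at passage 3 either untreated (control) or after vitamin C (VitC). Neither the dose nor the length of treatment is stated in the labels. Each group had 3 samples in each of 3 assays: RNA-seq after ribosomal depletion, hMeDIP (immunoprecipitation of DNA fragments that carry 5-hydroxymethylcytosine) and input DNA sequenced without precipitation. The labels do not state whether the samples of a group were separate cultures or animals, so the spread between them may be technical.

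Secreted class 3 semaphorins such as Sema3a bind neuropilins on the cell surface, and plexins next to the neuropilins pass the signal to the cytoskeleton; Sema4f is a membrane-bound semaphorin found on Schwann cells. Netrins act through attractive receptors of the Dcc family and through Unc5 receptors, which mediate repulsion, and slits act through Robo receptors. In peripheral nerve these systems are known to steer axons and also to set how Schwann cells migrate and keep contact with axons. 5-hydroxymethylcytosine is made from 5-methylcytosine by the TET dioxygenases, enzymes for which vitamin C is a cofactor, and it forms almost entirely where a C is followed by a G.

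Of the 10 genes, 6 were found in a RefSeq promoter table of assembly GRCr8 (Nrp1, Nrp2, Sema4f, Plxna2, Unc5b and Robo1; not Sema3a, Unc5d, Ntn1 or Slit2). The 4 shown here are those that also have a promoter peak in the hMeDIP data, and they are shown because CG positions are where the measured mark can sit. Each line holds the 250 bases upstream of the annotated start, read 5′ to 3′ along the gene's own strand, with every CG in capitals. The motif CG reads the same on both strands. The windows are chr19:73256307-73256556 on the plus strand for Nrp1, chr9:71617004-71617253 on the plus strand for Nrp2, chr4:116995443-116995692 on the minus strand for Sema4f and chr20:29307271-29307520 on the minus strand for Unc5b. The peak coordinates given further on come from another, unnamed build, so peaks and windows were not laid over each other.
Nrp1: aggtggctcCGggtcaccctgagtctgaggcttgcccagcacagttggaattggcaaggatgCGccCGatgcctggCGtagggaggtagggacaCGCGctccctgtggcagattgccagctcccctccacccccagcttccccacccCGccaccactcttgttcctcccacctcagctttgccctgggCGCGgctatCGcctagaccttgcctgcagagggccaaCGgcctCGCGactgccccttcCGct
Nrp2: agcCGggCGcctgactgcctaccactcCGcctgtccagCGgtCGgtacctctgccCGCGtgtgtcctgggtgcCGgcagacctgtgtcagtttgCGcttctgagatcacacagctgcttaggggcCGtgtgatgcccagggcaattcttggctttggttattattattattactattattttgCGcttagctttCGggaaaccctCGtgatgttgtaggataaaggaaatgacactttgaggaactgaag
Sema4f: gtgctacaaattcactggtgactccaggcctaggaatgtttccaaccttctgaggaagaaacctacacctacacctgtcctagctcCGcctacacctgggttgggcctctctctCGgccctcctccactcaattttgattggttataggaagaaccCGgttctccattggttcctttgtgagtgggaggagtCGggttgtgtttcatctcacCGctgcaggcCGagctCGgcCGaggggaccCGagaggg
Unc5b: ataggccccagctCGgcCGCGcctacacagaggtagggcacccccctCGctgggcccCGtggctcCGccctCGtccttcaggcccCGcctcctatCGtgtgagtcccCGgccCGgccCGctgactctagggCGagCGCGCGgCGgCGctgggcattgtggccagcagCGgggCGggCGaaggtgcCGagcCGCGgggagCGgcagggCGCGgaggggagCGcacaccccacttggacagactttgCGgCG

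The Unc5b window held 30 CG, and only 5.3% of the 33469 RefSeq promoters of this length held as many. Nrp1 had 14, Nrp2 had 13 and Sema4f had 9 CG, counts reached by 27.6%, 29.4% and 38.5% of promoters. At least 1 CG was present in 92.2% of all promoters. The 4 windows thus ran from a promoter dense in the target dinucleotide, Unc5b, to promoters nearer the middle of the genome-wide range, where the median promoter held 5 CG.

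An RNA library had 23.4 to 33.2 M reads in genes, an hMeDIP library 24 to 39.9 M reads in peaks and an input library 7.2 to 9.52 M reads in peaks. In hMeDIP, the counts of replicates 1 and 3 differed by less than sampling noise, which alone gives about 1 chi-square per degree of freedom. The value was 0.96 among the controls and 0.90 among the vitamin C samples, so the pair was summed and counted as 1 sample, which leaves n = 2 per group. Whether the pair are separate samples is not stated. Values are still printed per library, so statements on every hMeDIP library count the pair as 2. In RNA, replicate 1 of vitamin C stood apart from the other two libraries of its group (chi-square per degree of freedom 29.3 and 41, against 5.54 between the other two). The peak list consists of 2 consecutive blocks, rows 1 to 68431 and rows 68432 to 215951, each running through all chromosomes. The blocks differed in direction over all genes: the median log2 change of hMeDIP was -0.99 in the first and 0.30 in the second, and 68 guidance peaks lie in the first and 170 in the second. The cells carried Schwann markers: the 8 fixed Schwann markers summed to 11904 to 12174 CPM (reads scaled to library size) in controls and to 11436 to 12176 CPM with vitamin C.

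RNA of 5 guidance genes was higher with vitamin C (Nrp2, Sema4f, Sema3a, Ntn1 and Slit2), RNA of 3 was lower (Unc5b, Unc5d and Robo1), and 2 did not differ beyond the spread of the libraries (Nrp1 and Plxna2). All 4 ligands were on the higher side, as was the receptor Nrp2, and all 3 genes on the lower side were receptors. This split describes genes picked with their values known and is not a result about ligands and receptors. These 8 calls are at an adjusted p below 0.05 in edgeR's quasi-likelihood test over all genes, where 19.1% of the 12925 genes tested were higher and 21% were lower; the genes were picked with these values known, so nothing is read from the counts. Scaled by all counted reads, 1639 genes were higher and 1115 lower in all, in place of 2473 and 2715, and Sema3a was no longer among those past the threshold. Without replicate 1 of vitamin C, 5 guidance genes were higher and 4 lower, with Plxna2 added, where 2718 of all genes were higher and 2916 lower. Libraries of the groups did not overlap for the same numbers, 5 higher and 3 lower, against 25.8% and 29% of all genes. RNA levels are given as CPM after TMM scaling (a correction that takes most genes as unchanged). They are not corrected for gene length and therefore are not compared between genes.

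Nrp2 (ENSRNOG00000031232; chromosome 9, 69497121 to 69612087, plus strand, on an unnamed build) encodes neuropilin 2, a co-receptor for secreted semaphorins and for VEGF. Its RNA stood at 21.7, 21 and 21.8 CPM in the 3 controls and at 111, 107 and 102 CPM with vitamin C. All treated libraries lay far above all controls, and the libraries within a group lay close together. The log2 change was 2.31 ± 0.06 (SE), a 4.96-fold difference, which placed Nrp2 84th from the top among all genes tested.

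Nrp1 (ENSRNOG00000010744; chromosome 19, 61332351 to 61485858, plus strand), the co-receptor through which Sema3a classically acts, gave 13.6, 14.5 and 16.2 CPM in controls. With vitamin C it gave 15.7, 13.5 and 11.7 CPM. The groups overlapped, and the log2 change of -0.11 ± 0.12 (SE) was within its error. Of the 2 neuropilins, Nrp2 was far higher while Nrp1 did not differ beyond its error.

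Plxna2 (ENSRNOG00000007324; chromosome 13, 113373578 to 113571648, plus strand) encodes a plexin that pairs with neuropilins. Its RNA was 13.9, 15.1 and 15.8 CPM in controls and 16.6, 11.6 and 10 CPM with vitamin C, a log2 change of -0.23 ± 0.17 (SE). Replicate 1 of vitamin C lay above every control and the other two treated libraries lay below every control. Without that replicate the log2 change was -0.47 and passed the threshold.

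Sema4f (ENSRNOG00000006784; chromosome 4, 113738226 to 113764532, minus strand) is the membrane-bound ligand. RNA was 23.7, 26.5 and 25.1 CPM in controls and 75.2, 81.9 and 80.2 CPM with vitamin C. The groups were far apart, and neither had a library that stood out. Its log2 change was 1.65 ± 0.07 (SE), a 3.15-fold difference and 274th from the top.

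Sema3a (ENSRNOG00000023337; chromosome 4, 18178656 to 18396035, minus strand), the secreted semaphorin best known for collapsing growth cones, was at 4.79, 4.61 and 4.23 CPM in controls. The vitamin C libraries were at 6.82, 7.01 and 5.7 CPM, all above the controls. The log2 change was 0.51 ± 0.12 (SE), and replicate 3 was the lowest of the treated libraries. Under scaling by all counted reads the value was 0.50 and did not pass.

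Ntn1 (ENSRNOG00000003947; chromosome 10, 54761871 to 54967585, minus strand), netrin 1, had few reads: 7, 9 and 7 in controls against 42, 48 and 26 with vitamin C. In CPM these are 0.26, 0.27 and 0.29 against 1.65, 1.73 and 0.91. The groups did not overlap, but replicate 3 of vitamin C lay well below the other two. The log2 change of 2.38 ± 0.34 (SE), 77th from the top, has the widest error of the 10 genes.

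Both Unc5 receptors were lower. Unc5d (ENSRNOG00000011858; chromosome 16, 67350580 to 67595213, plus strand) was at 26, 30.2 and 30.8 CPM in controls and at 4.02, 4.08 and 2.64 CPM with vitamin C. Every treated library was far below every control, and the log2 change of -3.02 ± 0.15 (SE) was 33rd from the bottom of all genes tested. Unc5b (ENSRNOG00000000567; chromosome 20, 30339673 to 30406295, minus strand) was at 38.7, 47.3 and 47.7 CPM in controls and at 22.3, 27.4 and 24.2 CPM with vitamin C. Its groups did not overlap either, at a log2 change of -0.85 ± 0.11 (SE). Reads of the netrin ligand and its 2 listed receptors therefore lay on opposite sides.

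The slit pair was divided in the same way. Slit2 (ENSRNOG00000003840; chromosome 14, 66831848 to 67170361, minus strand), a secreted repellent, stood at 26.6, 26.3 and 26.4 CPM in controls and at 61.6, 49.2 and 44.3 CPM with vitamin C. Every treated library was above every control, with replicate 1 the highest, and the log2 change was 0.97 ± 0.11 (SE). Robo1 (ENSRNOG00000029614; chromosome 11, 9642413 to 10143317, plus strand), a slit receptor, stood at 3.44, 3.07 and 3.43 CPM in controls and at 2.09, 1.16 and 1.16 CPM with vitamin C. It was lower in all 3 treated libraries, least so in replicate 1, at a log2 change of -1.18 ± 0.23 (SE).

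**Figure D1:**
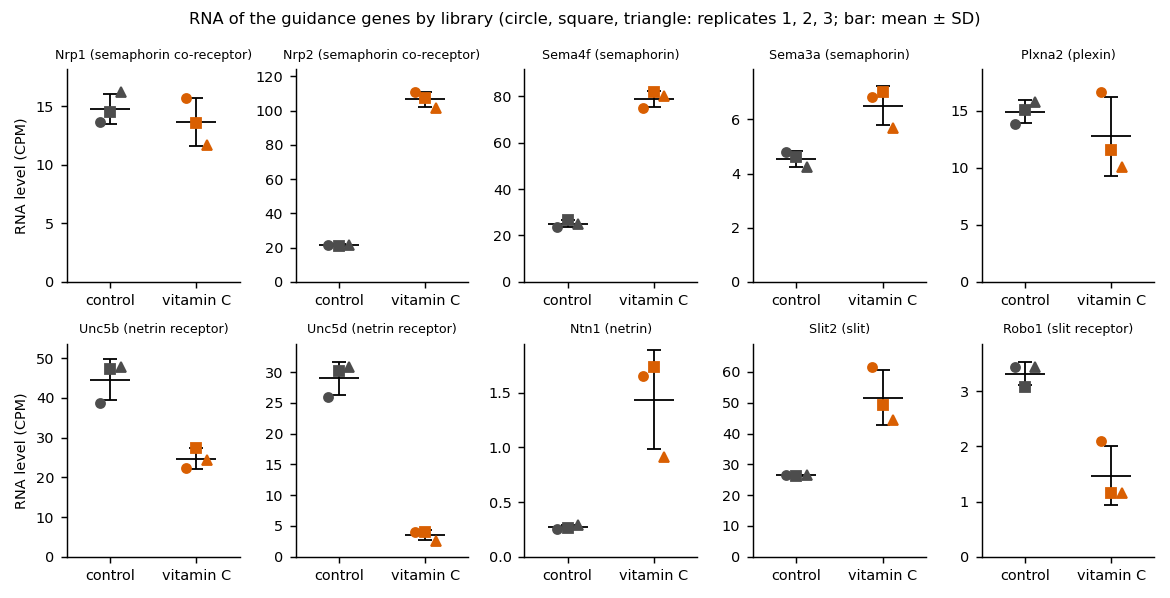
RNA level (CPM, linear axes from 0, a scale of its own for each gene) of the 10 guidance genes in each control and vitamin C library; circle, square and triangle are replicates 1, 2 and 3, and bars show mean ± SD (n = 3). Nrp2, Sema4f, Sema3a, Ntn1 and Slit2 lie higher with vitamin C, Unc5b, Unc5d and Robo1 lie lower, and the groups overlap for Nrp1 and Plxna2.

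These are bulk libraries, in which fewer cells of a type and less RNA per cell cannot be told apart. Markers of other cell types moved beside these genes. The 6 fibroblast markers with a row summed to 4516 to 4709 CPM in controls and to 9276 to 10787 CPM with vitamin C, nearly all of it Col1a1, while Dpt and Dcn were at 0 reads in every library and Pdgfra, Pi16 and Gsn fell (log2 changes of -1.38, -0.78 and -0.75). The 9 pericyte and smooth muscle markers summed to 78.3 to 81.4 CPM and to 194 to 221 CPM, of which Rgs5, Cnn1, Acta2, Notch3 and Cspg4 had at most 10 reads in any library, and the 5 perineurial markers to 208 to 235 CPM and to 438 to 451 CPM. Within the perineurial list Itgb4 and Ntn4 rose (log2 changes of 1.98 and 1.17), Sfrp4 and Slc2a1 fell (-3.10 and -0.54), and Cldn1 had at most 2 reads in any library. The 4 endothelial markers with a row summed to 1.38 to 1.83 CPM and to 3.09 to 4.29 CPM, nearly all of it Tek (log2 change of 1.15). Cdh5 was at 0 reads, and Kdr and Vwf had at most 3 reads in any library. The 4 macrophage markers with a row summed to 1.21 to 1.57 CPM and to 1.42 to 1.79 CPM, and the 5 neuronal markers to 76.8 to 93.9 CPM and to 71.6 to 90.6 CPM. Within the neuronal list Tubb3 rose (0.93), Nefl fell (-1.18), Nefm did not pass (0.18), and Rbfox3 and Snap25 had at most 3 reads in any library. The part of such cells in the guidance gene values was not tested.

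The rest of the semaphorin, netrin and slit families was listed by role as 64 further genes, of which 51 had enough reads, and of these 19 rose, 6 fell and 26 did not pass (edgeR's quasi-likelihood test, adjusted p below 0.05 over all genes), where 19.1% of all genes tested were higher and 21% lower. The list was drawn up with earlier results of these data known, so its counts are a description. The median log2 change of the 51 was 0.15, beside -0.01 over all genes tested. Of the others, 11 had at most 9 reads in any library and 2 had no symbol in the peak annotation. Without replicate 1 of vitamin C, 20 rose and 11 fell, where 2718 of all genes were higher and 2916 lower. Levels in CPM and log2 changes with their SE are given below for the leading genes of each role.

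Further semaphorins made up the largest group of ligands, with 14 tested, of which 7 rose and 1 fell. Sema6d, a transmembrane semaphorin, was at 50.9, 45.1 and 47.5 CPM in controls and 136, 113 and 102 CPM with vitamin C; it rose by 1.29 ± 0.11 on the log2 scale (SE, adjusted p = 3.84e-05, edgeR). Sema3b and Sema3c, both secreted ligands of neuropilins, rose by 0.88 ± 0.08 (adjusted p = 6.34e-05) and 0.59 ± 0.07 (adjusted p = 0.00043). Sema7a, the membrane-anchored semaphorin that binds Plxnc1, rose by 0.36 ± 0.07 (adjusted p = 0.00544; 0.105 under scaling by all counted reads). The semaphorin that fell was Sema3e, a ligand of Plxnd1, at a log2 change of -0.25 ± 0.07 (SE; adjusted p = 0.0264). In the 4 that are named as risen, the lowest treated library was above the highest control.

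Plexins were split. Of 7 tested besides Plxna2, 3 rose and 2 fell. Plxnb3 fell by 0.45 ± 0.08 on the log2 scale (adjusted p = 0.00298, edgeR) and Plxnb1, a receptor of Sema4d, fell by 0.21 ± 0.06 (adjusted p = 0.0199). Plxnc1 rose by 0.87 ± 0.22 (adjusted p = 0.0131) from a low level, 0.54 to 0.69 CPM in controls. Plxna4, a partner of Nrp1 in Sema3a signalling, was at 445, 405 and 455 CPM in controls and 912, 546 and 550 CPM with vitamin C, a rise of 0.62 ± 0.18 (adjusted p = 0.0254) in which replicate 1 was far above the other two treated libraries. Without vitamin C replicate 1 the log2 change of Plxna4 was 0.33 and still passed. The Plxna4 call did not pass when any 1 of the 3 control libraries was left out (adjusted p = 0.0726, 0.0947 and 0.0745), Plxnb1 did not pass without control replicate 2 or 3 (0.0621 and 0.0708), and Plxnc1 did not pass without control replicate 2 or vitamin C replicate 2 (0.0568 and 0.0563). DESeq2 gave Plxna4 and Plxnc1 an adjusted p of 0.0529 and 0.0769, and scaling by all counted reads gave Plxnb1 one of 0.303.

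All 3 netrin family genes that passed rose, of 4 tested. Ntng1 and Ntng2 encode membrane-anchored netrin G proteins, which do not bind Dcc or Unc5. Ntng1 was at 2.12, 1.62 and 1.63 CPM in controls and 17.5, 9.68 and 10.4 CPM with vitamin C, a rise of 2.80 ± 0.26 on the log2 scale (adjusted p = 7.33e-05, edgeR). Ntng2 rose by 0.92 ± 0.10 (adjusted p = 0.000193) and Ntn4, a netrin of basement membranes, by 1.17 ± 0.13 (adjusted p = 0.000209). Ntn4 is also among the 5 perineurial markers above. Of the further netrin receptors, Unc5c and Neo1 were tested and neither passed, at log2 changes of -0.61 ± 0.22 (SE; adjusted p = 0.0581) and -0.22 ± 0.09 (SE; adjusted p = 0.0792). Dcc, Unc5a and Dscam had too few reads.

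Slit3, the only further slit tested, was at 2.92, 2.98 and 3.06 CPM in controls and 5.75, 7.51 and 5.34 CPM with vitamin C, and rose by 1.05 ± 0.15 on the log2 scale (adjusted p = 0.000862, edgeR). Slit1, Robo2 and Robo3 had too few reads, and Robo4 has no symbol in the peak annotation and was not looked up. Of 23 intracellular effectors of these pathways, 5 rose and 3 fell. Dpysl4, a collapsin response mediator, fell by 1.80 ± 0.13 (adjusted p = 1.67e-05), and Ablim3, an actin-binding LIM protein, rose by 2.39 ± 0.24 (adjusted p = 0.000104) from 0.44 to 0.75 CPM in controls. Dpysl3 rose by 0.55 ± 0.07 (adjusted p = 0.000367), and Mical1, an oxidoreductase that disassembles actin downstream of plexins, fell by 0.45 ± 0.06 (adjusted p = 0.0007).

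**Figure D2:**
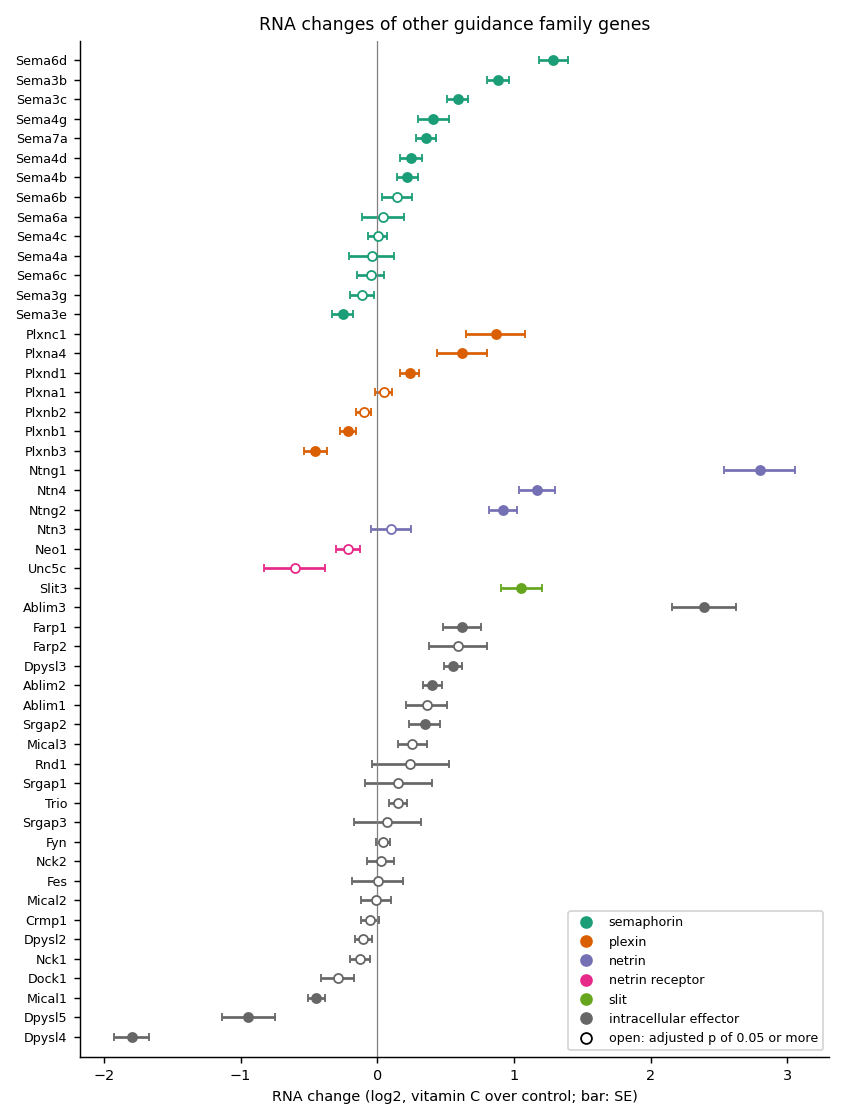
RNA log2 change (vitamin C over control, horizontal axis) of the 51 other guidance family genes tested, grouped by role, with bars for the SE; filled points passed at an adjusted p below 0.05. Ntng1 at 2.80 and Ablim3 at 2.39 lie farthest to the right and Dpysl4 at -1.80 farthest to the left, with 26 open points around 0.

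Likeness was taken as the Pearson correlation of log2 CPM over the 6 RNA libraries, among 7260 genes averaging a log2 CPM of 3 or more. Genes without a symbol in the peak annotation, or with a symbol starting with LOC, RGD, AABR or AC and a digit, were left out. The genes whose RNA followed Nrp2 most closely were Cnksr3 at 0.9996, Itgb4 at 0.9994 and Loxl2 at 0.9993. Those most like Unc5d were Adamts9 at 0.9993, Shc4 at 0.9984 and Cpe at 0.9984. The points share the 2 treatment groups, and correlations of 0.99 or more were reached by 178 genes for Nrp2 and by 54 for Unc5d, so these are descriptions of the pattern across 6 libraries. Itgb4 is also one of the 5 perineurial markers.

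The 5-hydroxymethylcytosine of these genes was next summed over all peaks of a gene, scaled so that the average gene did not move. By this measure it was lower with vitamin C in 6 genes (Nrp1, Sema3a, Plxna2, Unc5d, Slit2 and Robo1), higher in 1 (Unc5b) and not past the threshold in 3 (Nrp2, Sema4f and Ntn1), all with differences of at most 0.40 on the log2 scale. Over all 17003 genes with peaks, 37.3% were higher and 37.3% were lower. Libraries of the groups did not overlap in the same 7 genes, 1 higher and 6 lower, against 40.6% and 39% of all genes. These directions are relative to the typical gene: reads in peaks made up 30.8% to 35.7% of all counted hMeDIP reads in controls and 40.8% to 43.9% with vitamin C. Scaled by all counted reads, the median over all genes moved from 0.01 to 0.43, and 7 of the 10 genes were higher and 0 lower. Over all genes the split was then 11042 higher and 2971 lower, in place of 6335 and 6347.

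Unc5d had the most negative difference, with 149, 153 and 149 CPM in controls and 113, 115 and 116 CPM with vitamin C. The groups were well separated, at a log2 change of -0.40 ± 0.03 (SE), which became 0.03 under scaling by all counted reads. Plxna2 was at 117, 125 and 120 CPM and then at 96.1, 96.7 and 100 CPM, a log2 change of -0.32 ± 0.04 (SE; 0.10 under that scaling). Robo1 was at 149, 162 and 146 CPM and then at 132, 127 and 136 CPM, a log2 change of -0.23 ± 0.04 (SE; 0.18 under that scaling). For each of these 3 genes every treated library was below every control, and for each the sign turned when all counted reads set the scale.

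With TMM scaling, Unc5b differed from Unc5d. It was at 223, 218 and 232 CPM in controls and at 248, 263 and 247 CPM with vitamin C, all 3 treated libraries above the controls, and its log2 change of 0.18 ± 0.03 (SE) was positive under both scalings. The 2 receptors shared a lower RNA level but, with TMM scaling, not the side on which their hydroxymethylation lay. Scaled by all counted reads both lay above 0, Unc5d at only 0.03 and not past the threshold. In the genes with the largest RNA differences upward the summed mark was nearly the same in both groups: Nrp2 was at 385, 372 and 377 CPM and then at 378, 377 and 371 CPM (log2 change -0.01 ± 0.03, SE). Sema4f was at 119, 113 and 117 CPM and then at 117, 118 and 115 CPM (0.00 ± 0.04, SE). For Ntn1 the values were 295, 284 and 298 CPM and then 291, 296 and 296 CPM (0.01 ± 0.03, SE). The groups overlapped in all 3 genes; under scaling by all counted reads the log2 changes were 0.42, 0.44 and 0.45, near the median of all genes.

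Nrp1, Sema3a and Slit2 showed small differences of -0.14 ± 0.03, -0.14 ± 0.04 and -0.12 ± 0.03 (log2, SE), with signs that also turned under scaling by all counted reads (0.30, 0.29 and 0.31). Among the 5 genes with higher RNA, none had a higher summed mark, 2 had a lower one and 3 did not pass. Among the 3 with lower RNA, 1 had a higher mark and 2 a lower one. At this scaling the RNA and the summed mark lay on the same side in 2 of the 8 genes with an RNA difference, Unc5d and Robo1. Scaled by all counted reads they did so in 5 of the 8 (Nrp2, Sema4f, Sema3a, Ntn1 and Slit2), while Unc5d and Robo1 no longer passed, so which genes match depends on the scaling. Sema3a RNA did not itself pass when scaled that way (adjusted p = 0.0537, edgeR). Over all genes the mark was then higher in 11042 and lower in 2971. The lower mark of Sema3a did not pass without vitamin C replicate 2 (-0.11).

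**Figure D3:**
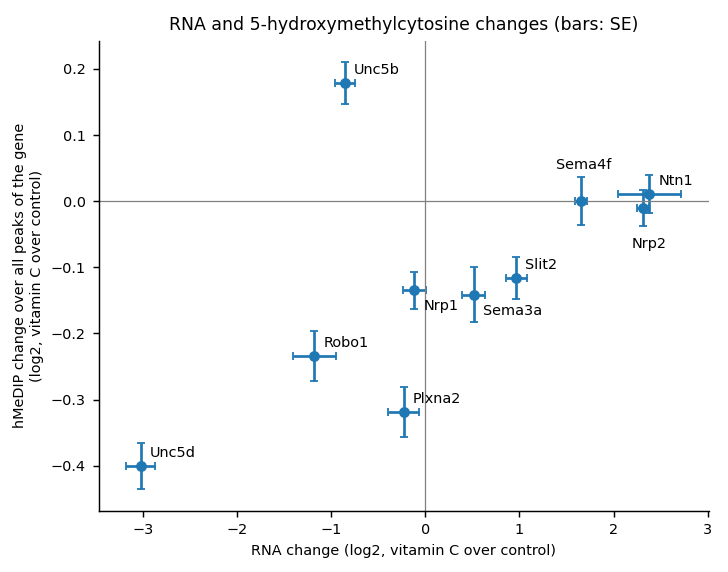
RNA log2 change (horizontal) against the log2 change of hMeDIP reads summed over all peaks of the gene (vertical, TMM scaling) for the 10 guidance genes, vitamin C over control, with bars for the SE. Unc5d lies lowest at -3.02 and -0.40, Unc5b is the only gene clearly above 0 on the vertical axis, and Nrp2, Sema4f and Ntn1 lie at about 0 there; scaled by all counted reads every gene would lie above 0 vertically.

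A gene sum hides differences between peaks. Of the 238 peaks, 84 were higher with vitamin C, 86 were lower and 68 did not pass (edgeR, adjusted p below 0.05), where 36.9% of all 215951 peaks were higher and 36.3% lower. Of the 229 that lie in gene bodies, 76 were higher and 86 lower, where 44.5% and 28.4% of all 91886 gene body peaks were. Libraries did not overlap at 92 of the 238 peaks in the higher direction and at 90 in the lower, against 38.6% and 38.3% of all peaks. The median log2 change of the 238 was 0.03, beside 0.05 over all peaks. Scaled by all counted reads, 137 were higher and 47 lower, and the median over all peaks was 0.49. Over all peaks the split was then 129858 higher and 51017 lower, in place of 79598 and 78467. The block of the peak list went with direction: 1 of the 68 guidance peaks in the first block was higher and 55 were lower, where 2.89% and 87.1% of all peaks in that block were; of the 170 in the second block 83 were higher and 31 lower, where 52.6% and 12.8% were. How the list was put together is not stated, and its part in these directions was not tested.

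The share of higher peaks differed from gene to gene. Unc5b had 10 of 17 peaks higher and 2 lower, Sema4f 6 of 9 higher and 3 lower, and Ntn1 17 of 34 higher and 9 lower. Nrp2 had 16 of 37 higher and 10 lower, Slit2 10 of 26 higher and 11 lower, and Nrp1 11 of 37 higher and 16 lower. At the other end, Unc5d had 2 of 22 higher and 11 lower, Plxna2 3 of 17 higher and 9 lower, Robo1 5 of 24 higher and 9 lower, and Sema3a 4 of 15 higher and 6 lower. The genes also differed in how many of their peaks the first block holds: 10 of 22 for Unc5d, 7 of 17 for Plxna2 and 10 of 24 for Robo1, against 2 of 17 for Unc5b, 1 of 9 for Sema4f and 5 of 34 for Ntn1.

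**Figure D4:**
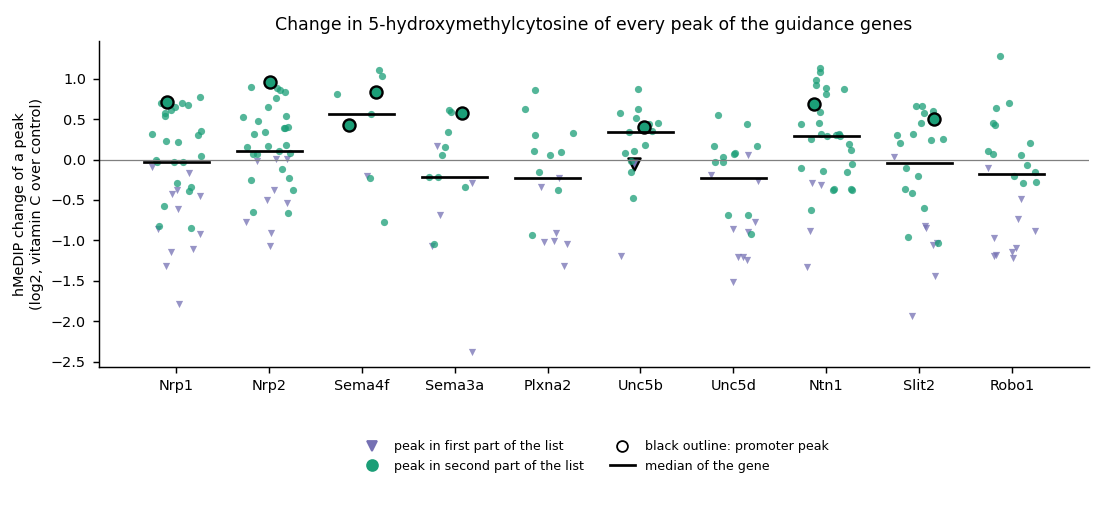
Log2 change of hMeDIP (vitamin C over control, TMM scaling, vertical axis) for each of the 238 peaks by gene; triangles are peaks in the first block of the list, circles those in the second, black outlines mark promoter peaks and horizontal lines the median of the gene. First-block peaks lie almost all below 0, and 8 of the 9 promoter peaks lie above 0; scaling by all counted reads raises the median over all peaks from 0.05 to 0.49.

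Peaks at promoters were mostly on the higher side. The annotation placed 9 guidance peaks at promoters, in 7 genes, and 8 of them were higher with vitamin C and 1 did not pass, where 42.7% of all 17444 promoter peaks were higher and 30.2% lower. All 8 lie in the second block, where 56.6% of promoter peaks were higher and 10.6% lower. Scaled by all counted reads, all 9 were higher, where 129858 of all 215951 peaks were. DESeq2 called 5 of them higher, not those of Sema3a, Slit2 and Unc5b, where it called 43730 of all peaks higher. Shares of promoter peaks alone were not counted under these 2 settings.

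The promoter peak of Nrp1 (chr19:61331965-61333075) overlaps the annotated start and carried 3.31, 2.77 and 2.51 CPM in controls and 4.9, 4.48 and 4.55 CPM with vitamin C, a log2 change of 0.72 ± 0.12 (SE). Nrp2 had its promoter peak within 3 kb of the start, at chr9:69498199-69498641, with 0.83, 1.3 and 1.19 CPM and then 2.67, 2.09 and 1.75 CPM (0.96 ± 0.18, SE). The groups did not overlap at either peak. Nrp1 and Nrp2 thus shared a higher promoter signal while only Nrp2 RNA was higher.

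Sema4f had 2 promoter peaks. The first (chr4:113763001-113764751), which spans the start, was at 7.03, 8.62 and 7.19 CPM in controls and 10.1, 9.9 and 10.3 CPM with vitamin C (log2 change 0.43 ± 0.08, SE). The second (chr4:113765201-113765625), just upstream, was at 0.98, 0.91 and 1.13 CPM and then at 1.81, 1.72 and 1.87 CPM (0.83 ± 0.19, SE). Both groups of libraries were apart at both peaks. Next to them, inside the gene, lay the Sema4f peak with most reads (chr4:113759488-113762920), at 26.5, 25.6 and 26.6 CPM in controls and 21.9, 23.5 and 20.9 CPM with vitamin C. It was lower (-0.23 ± 0.06, SE), so neighbouring peaks of the gene lay on opposite sides; under scaling by all counted reads this peak too was above 0, at 0.24.

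Ntn1 had a promoter peak at chr10:54968508-54969113 with 1.99, 2.6 and 2.32 CPM in controls and 3.48, 3.93 and 3.58 CPM with vitamin C (log2 change 0.69 ± 0.14, SE). The promoter peak of Sema3a (chr4:18396303-18396894) was at 2.44, 1.82 and 1.68 CPM and then at 3.03, 2.91 and 2.78 CPM (0.58 ± 0.15, SE). That of Slit2 (chr14:66978769-66979147) lies upstream of a second, shorter annotated transcript and was at 1.88, 1.65 and 1.28 CPM and then at 2.2, 2.24 and 2.24 CPM (0.51 ± 0.17, SE). All 3 genes are ligands with higher RNA, and at each peak every treated library was above every control. Without control replicate 3 the Slit2 peak was at 0.35 and no longer passed.

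Unc5b, a gene with lower RNA, had 2 promoter peaks. The one upstream of the start (chr20:30406835-30407416) was at 2.52, 1.99 and 1.8 CPM in controls and 2.78, 2.81 and 2.63 CPM with vitamin C (log2 change 0.41 ± 0.15, SE), a narrow gap between the groups that no longer passed without control replicate 3 (0.29) or without vitamin C replicate 2 (0.39). The other (chr20:30402045-30404900), the only guidance promoter peak in the first block, was at 15, 14.9 and 14.9 CPM and then at 14, 15.5 and 12.9 CPM (-0.06 ± 0.07, SE; 0.41 under scaling by all counted reads). Higher promoter signal therefore occurred in genes with higher RNA, with lower RNA and, in Nrp1, without an RNA difference. Plxna2, Unc5d and Robo1 had no promoter peak.

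The peak with most hMeDIP reads in each gene mostly lay on the other side. It was lower with vitamin C in 9 of the 10 genes and higher in 1, where 36.7% of such peaks were lower and 34.3% higher over 3235 genes with at least 9 peaks. Scaled by all counted reads, 3 were lower, where 51017 of all 215951 peaks were. The 9 that were lower with TMM scaling all lie in gene bodies. Of these, 4 are in the first block, and of the 6 guidance peaks of this kind in the second block 5 were lower. For Nrp1 it lies at chr19:61392081-61394202, with 19.6, 20.3 and 20 CPM in controls and 10.8, 10.9 and 11 CPM with vitamin C (log2 change -0.86 ± 0.06, SE). Plxna2 was likewise lower at chr13:113434418-113435486, from 7.29, 7.58 and 7.8 CPM to 3.7, 4.13 and 3.92 CPM (-0.93 ± 0.10, SE). Unc5d was at 7.71, 8.53 and 7.86 CPM and then at 4.53, 4.65 and 4.02 CPM at chr16:67579823-67580589 (-0.85 ± 0.09, SE). These 3 stayed below 0 under scaling by all counted reads. Set against input in a joint edgeR fit, the peaks with most reads of Nrp1, Plxna2, Unc5d and Sema4f were still lower and that of Unc5b higher. Those of Nrp2, Ntn1, Robo1, Sema3a and Slit2 did not pass in that fit (adjusted p = 0.282, 0.0541, 0.0831, 0.331 and 0.0726).

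The peaks with most reads in Nrp2 (chr9:69568448-69570655), Ntn1 (chr10:54775115-54776786) and Slit2 (chr14:66912373-66914149) all had a log2 change of -0.37 ± 0.06 (SE). In Slit2, for instance, the values were 18.8, 18.9 and 19.1 CPM in controls and 14.2, 15.1 and 14.3 CPM with vitamin C. At each of the 3 peaks the groups did not overlap, and each turned to slightly above 0 when all counted reads set the scale (0.09, 0.09 and 0.09). Robo1 was lower at chr11:9866072-9867088 (-0.49 ± 0.08, SE; -0.09 under that scaling) and Sema3a at chr4:18310023-18311274 (-0.22 ± 0.09, SE; 0.20 under that scaling). The Sema3a peak did not pass in DESeq2 or without control replicate 1, control replicate 2 or vitamin C replicate 2 (-0.21, -0.21 and -0.18). The exception was Unc5b, whose widest peak (chr20:30366417-30371836) was at 31.8, 32.3 and 34.5 CPM and then at 36, 37.7 and 36.4 CPM (0.18 ± 0.05, SE), a difference that did not pass in DESeq2 (0.14).

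**Figure D5:**
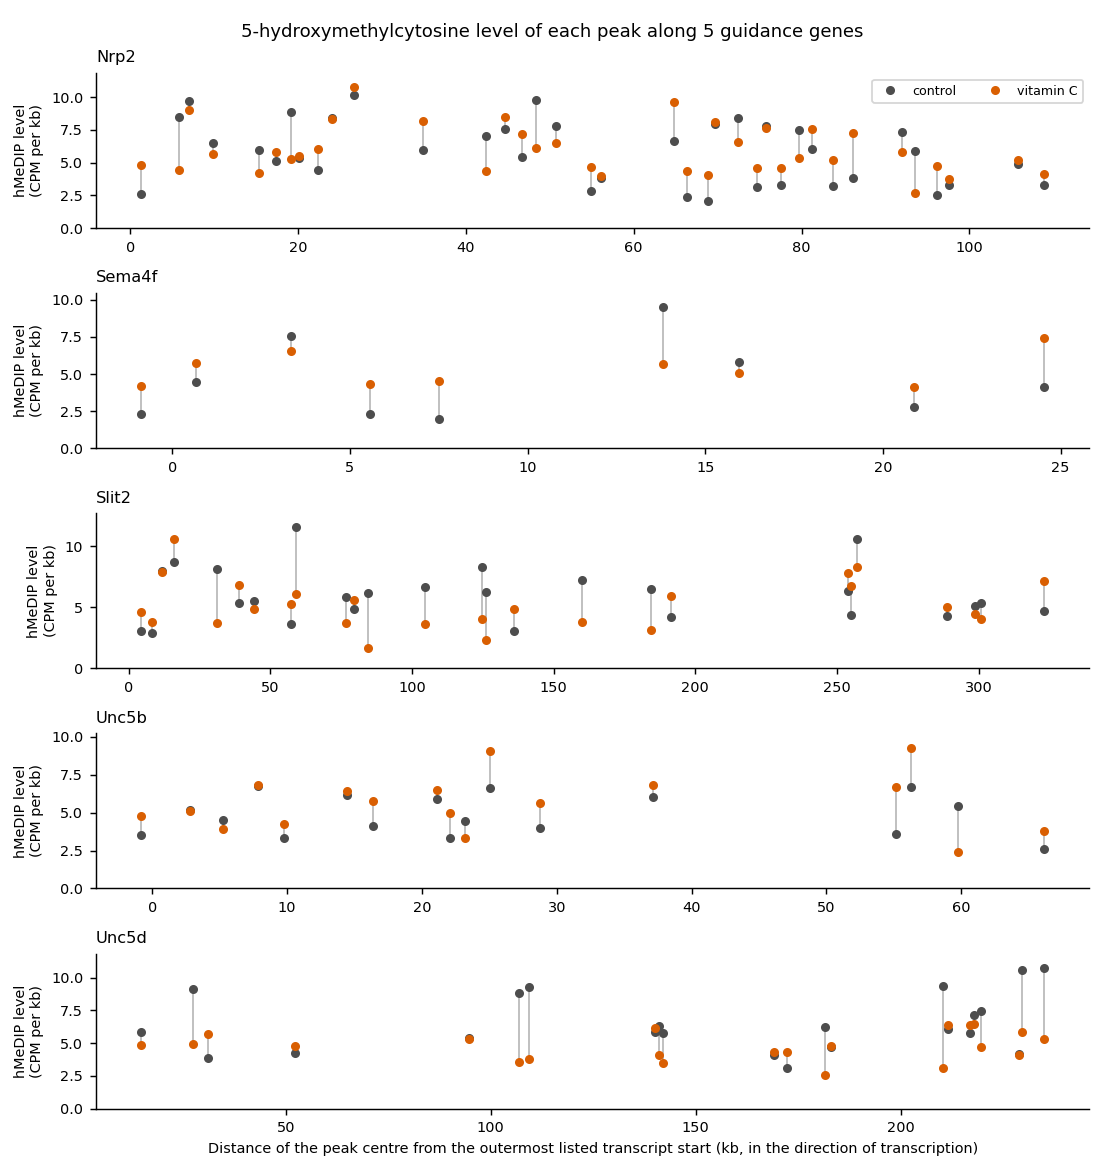
hMeDIP level of each peak (CPM per kb of peak, vertical axis from 0, TMM scaling) against the distance of its centre from the outermost listed transcript start (kb, horizontal axis) in Nrp2, Sema4f, Slit2, Unc5b and Unc5d; grey points are control means, orange points vitamin C means, joined by a line. Higher and lower peaks alternate along Nrp2 and Slit2, while in Unc5d the long lines mostly run downward from control to vitamin C; scaling by all counted reads places the vitamin C points higher throughout.

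Single gene body peaks differed more than any promoter peak. The most negative guidance peak was in Sema3a (chr4:18256178-18256733, first block), with 4.32, 3.29 and 3.39 CPM in controls and 0.61, 0.75 and 0.71 CPM with vitamin C, a log2 change of -2.38 ± 0.18 (SE). A Slit2 peak (chr14:67085636-67086037, first block) followed at -1.93 ± 0.20 (SE), from 2.29, 2.73 and 2.26 CPM to 0.50, 0.80 and 0.56 CPM. Both genes had higher RNA. The most positive guidance peak was in Robo1 (chr11:9682642-9683039, second block), with 1.09, 1.04 and 1.1 CPM in controls and 2.59, 2.41 and 2.87 CPM with vitamin C (1.29 ± 0.18, SE), although Robo1 RNA was lower. Within the body of Sema4f, a peak at chr4:113739599-113740388 was higher (0.81 ± 0.11, SE) and another at chr4:113750036-113751404 was lower (-0.78 ± 0.07, SE).

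Input DNA, which the choice of genes did not use, was tested at the same peaks. Of the 238 guidance peaks 0 passed at an adjusted p below 0.05 in edgeR's quasi-likelihood test, as did 0% of the 215759 input peaks tested, and DESeq2 also called 0 of the 238. An unadjusted p below 0.05 was reached by 9 of the 238. Log2 changes ran from -0.77 to 0.64 with a median of -0.03, beside 0.00 over all peaks. At the Sema3a peak with the most negative hMeDIP change, input was at 3.74, 3.48 and 3.78 CPM in controls and 2.84, 2.02 and 3.56 CPM with vitamin C (-0.39 ± 0.23, SE). At the promoter peak of Nrp2 it was at 2.92, 3.48 and 3.36 CPM and then at 2.03, 3.03 and 1.84 CPM (-0.48 ± 0.24, SE). Input held 15 to 32 reads per library at the Nrp2 peak, whose unadjusted p was 0.0486 and adjusted p 0.987 in edgeR. Set against input in a joint fit, hMeDIP was higher at 62 guidance peaks and lower at 54, where 26.7% and 25.4% of all peaks were. The joint fit uses the same hMeDIP values that were known when the genes were picked, so its counts too are a description.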

How the data were processed

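For 18 libraries the authors deposited read counts, whole numbers for each gene in RNA and for each peak in hMeDIP and input, and an annotated list of the peaks. Tools named in the submitters' processing notes, with no role stated, are STAR, BWA, HTSeq, Trim Galore and CASAVA 1.4. Peak caller, build, strand setting and peak merging: not given in the sources used here, so overlapping, antisense and near-identical genes cannot be told apart. Symbols came from the peak list.

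Rows of reads outside features were left out: reads in genes were 46.1% to 57.7% of those counted in RNA, and 32.7% to 44.9% mapped to several places. Counts were filtered (filterByExpr), scaled by TMM and tested with edgeR 4.0.16 (R 4.3.3) by the quasi-likelihood test, vitamin C against control, adjusted by Benjamini-Hochberg over all features; hMeDIP was fitted per peak, per gene (sum of peaks) and jointly with input. In hMeDIP, replicates 1 and 3 were summed. The design set a limit of 1.1 on chi-square per degree of freedom, which the other vitamin C pairs (1.09 and 1.08) did not exceed although the test separated them (p = 2.69e-166 and 1.14e-133); summing controls alone and no summing were run as alternatives. Between hMeDIP groups n is therefore 2, and SDs and errors are those of 2 counted samples. All 6 input pairs agreed within sampling noise and none was summed, since no pair differed. The scripts were tested on simulated counts with known changes.

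The members and all gene lists (other family genes by role, and markers of Schwann cells, fibroblasts, pericytes and smooth muscle, perineurial cells, macrophages, endothelium and neurons) were chosen with earlier results of these data known. Text names all 10 genes; per gene its promoter peaks, its peak with most reads and its peaks of smallest p; up to 4 family genes per role by smallest p (Sema3e, Unc5c and Neo1 were added after their values were seen); and the 3 genes most like Nrp2 and Unc5d. Same-numbered libraries did not deviate together (correlations of 0.17, 0.05 and 0.01 in RNA, -0.03, -0.20 and -0.11 in hMeDIP), so replicate numbers were not used as pairs. Alternatives were other scalings, DESeq2 1.42.0, no filter, a replicate block and leaving out each library.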

Additional observations from a re-analysis of the deposited data

How the results depend on the processing

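The RNA counts of 5 higher and 3 lower guidance genes moved by at most 1 gene in every alternative: leaving out each library gave 5 higher and 3 to 4 lower, the fourth being Plxna2 without vitamin C replicate 1. Among other family genes, leaving out each library gave 13 to 20 higher and 4 to 11 lower, with 11 lower without vitamin C replicate 1. Over all genes these runs gave 1710 to 2718 higher and 1784 to 2916 lower. Without the filter, 21 family genes were higher and 6 lower, where 2732 of all genes were higher and 2467 lower. With the replicate number as a block, the counts were 5 and 3 for RNA of the members (2705 and 2839 over all genes). For hMeDIP peaks they were 78 and 83 (75012 and 76086 over all peaks) and for input 0. For hMeDIP over input they were 51 and 62 (47316 and 61386 over all peaks). The block moved no count of the members by more than 1.5 times, and the pairing check is given above.

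Scaling by all counted hMeDIP reads gave 137 higher and 47 lower peaks, where 129858 of all peaks were higher and 51017 lower. It gave 3 lower among the peaks with most reads. Per gene it gave 7 higher and 0 lower, where 11042 of all genes were higher and 2971 lower. Under it the sign turned for the peaks with most reads of Nrp2 (0.0857), Ntn1 (0.0888), Sema3a (0.203), Sema4f (0.240) and Slit2 (0.0914) and for the Unc5b promoter peak in the first block (0.410; 0.00552 with library-size scaling). Per gene it turned for Nrp1 (0.295), Nrp2 (0.424), Sema3a (0.286), Plxna2 (0.102), Unc5d (0.0263), Slit2 (0.311) and Robo1 (0.180). A larger share of counted reads lay in peaks with vitamin C, which this scaling keeps and TMM takes out.

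DESeq2 called 50 peaks higher, and 5 promoter peaks, where it called 43730 of all peaks higher and 68751 lower. The cause of this difference from edgeR was not tested. Library-size scaling gave -0.0631 for Sema4f and -0.0530 for Ntn1 per gene, and gene body peaks alone gave -0.101 and -0.00761. Peaks of the first block alone gave 0 genes higher, where 259 of all genes were higher and 8952 lower. Sema4f was then at -0.172, Unc5b at -0.197 and Ntn1 at -0.429. Peaks of the second block alone gave 5 genes higher and 1 lower, where 9163 of all genes were higher and 1381 lower. Nrp1 was then at 0.125, Nrp2 at 0.153, Sema3a at 0.0262, Slit2 at 0.0137 and Robo1 at 0.200. Both block alternatives were chosen after seeing the data. Leaving out single libraries gave -0.0196 to 0.00755 for Nrp2, -0.0169 to 0.0206 for Sema4f and -0.00908 to 0.0190 for Ntn1. The per-gene direction of the mark thus changed with the scaling for most of these genes. It also differed between the blocks for most of them, as it did over all genes, and the part of the blocks was not tested. Unc5b alone was positive under every scaling.

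Input gave 0 calls under each alternative run. Ntn1 and Robo1 RNA and peaks under about 2 CPM rest on few reads, and with 2 counted hMeDIP samples a group the errors lean on the spread pooled over all peaks.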
